A study of Mus musculus with 2 samples.

Results

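In all, 9 genes of glucose uptake and glycolysis were examined in RNA of mouse pancreatic islets: the glucose transporter Slc2a2 and the glycolytic enzymes Gpi1, Pfkl, Pfkm, Aldoa, Gapdh, Pgk1, Pgam1 and Pkm. They were taken by gene symbol, and all 9 were found among the 17245 symbols of the deposited table. Islets were compared between a β-cell knockout of the DNA sensor cGAS (labelled KO) and wild type (WT), with 1 library per genotype. The sources used here do not give the driver of recombination, the deleted exon, the age or sex of the mice, or the number of animals whose islets went into a library. Islets of both genotypes were freed by collagenase digestion, hand-picked and cultured in serum-containing RPMI-1640. Values are FPKM, the reads or fragments of a gene per kilobase of its length and per 1000000 of its library. With 1 library per genotype no difference has a replicate check and no p-value is given; the intervals printed cover counting error only. Differences written as log2 have a pseudocount of 1 FPKM added in both libraries, and a gene counts as expressed where either library reaches 1 FPKM. A 2-fold difference on that scale is the limit for calling a gene higher or lower.

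β-cells take up glucose through facilitative transporters, of which GLUT2, the product of Slc2a2, is the main one in rodent β-cells. Glucose is then phosphorylated inside the cell, and its breakdown raises the ATP level that triggers insulin secretion. The enzymes that follow convert glucose 6-phosphate to pyruvate, most of which enters mitochondria in β-cells, where lactate dehydrogenase A and the lactate carrier Slc16a1 are normally kept low. In other tissues many glycolytic genes are induced by hypoxia-inducible factors, and in β-cells by the glucose-responsive factor ChREBP, the product of Mlxipl.

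The whole table bears on these genes as follows. A search for whole reads gave 14537660 reads for the KO-labelled library and 19097001 for WT. Cgas, the targeted gene, was at 0.521 FPKM in the KO-labelled library and 0.205 FPKM in the WT library, from at least 31 and 16 reads. Both values are under the limit of 1 FPKM, so Cgas did not count as expressed. Its RNA was not lower in the library labelled KO, but whole islets also hold cells other than β-cells. The genotype label could thus not be checked from it, and every direction below is between the libraries as labelled. Reads summed over a gene cannot be split into those of a deleted exon and the rest, nor by cell type. The islet label was met by the insulin genes in both libraries, with Ins1 at 237131 and Ins2 at 182558 FPKM in the KO-labelled library, and 113793 and 250577 FPKM in WT.

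Regulatory sequence is shown for the genes at both ends of the range: Slc2a2, Pgk1 and Pgam1, which lay furthest below the WT library, and Gpi1 and Gapdh, which lay furthest above it. Each is the stretch from 250 bases before to 50 after a transcript start in RefSeq, build GRCm38.p6, on the coding strand. For Slc2a2, Gpi1, Pgk1 and Pgam1 that start is the start of the whole gene, while the Gapdh start lies inside the span listed for the gene. Capitals mark the core of a hypoxia response element, ACGTG or GCGTG, or its reverse complement, CACGT or CACGC. The windows are chr3:28697653-28697952 on the plus strand for Slc2a2, chr7:34230287-34230586 on the minus strand for Gpi1 and chr6:125165724-125166023 on the minus strand for Gapdh. They are chrX:106186850-106187149 for Pgk1 and chr19:41911621-41911920 for Pgam1, both on the plus strand.
Slc2a2: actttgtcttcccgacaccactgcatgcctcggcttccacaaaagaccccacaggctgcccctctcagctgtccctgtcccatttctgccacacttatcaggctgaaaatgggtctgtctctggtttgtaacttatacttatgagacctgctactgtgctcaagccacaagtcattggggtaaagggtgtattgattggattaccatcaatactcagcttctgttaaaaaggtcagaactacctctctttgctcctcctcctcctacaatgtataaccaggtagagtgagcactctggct
Gpi1: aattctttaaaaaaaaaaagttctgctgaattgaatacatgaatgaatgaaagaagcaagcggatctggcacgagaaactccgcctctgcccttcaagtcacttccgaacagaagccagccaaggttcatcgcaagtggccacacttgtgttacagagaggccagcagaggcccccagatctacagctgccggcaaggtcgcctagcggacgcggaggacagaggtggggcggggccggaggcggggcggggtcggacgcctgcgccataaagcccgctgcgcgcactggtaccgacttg
Gapdh: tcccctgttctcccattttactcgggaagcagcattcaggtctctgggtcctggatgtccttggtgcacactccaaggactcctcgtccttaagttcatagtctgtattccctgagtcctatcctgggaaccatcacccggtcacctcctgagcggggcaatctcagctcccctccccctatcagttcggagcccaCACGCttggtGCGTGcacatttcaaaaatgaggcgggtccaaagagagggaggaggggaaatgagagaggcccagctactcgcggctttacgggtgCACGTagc
Pgk1: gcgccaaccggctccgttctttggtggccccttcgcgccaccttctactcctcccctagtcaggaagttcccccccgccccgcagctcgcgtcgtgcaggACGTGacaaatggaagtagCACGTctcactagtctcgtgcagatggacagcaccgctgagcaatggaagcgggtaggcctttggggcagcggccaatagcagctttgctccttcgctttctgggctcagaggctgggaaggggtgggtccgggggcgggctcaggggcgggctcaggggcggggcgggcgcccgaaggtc
Pgam1: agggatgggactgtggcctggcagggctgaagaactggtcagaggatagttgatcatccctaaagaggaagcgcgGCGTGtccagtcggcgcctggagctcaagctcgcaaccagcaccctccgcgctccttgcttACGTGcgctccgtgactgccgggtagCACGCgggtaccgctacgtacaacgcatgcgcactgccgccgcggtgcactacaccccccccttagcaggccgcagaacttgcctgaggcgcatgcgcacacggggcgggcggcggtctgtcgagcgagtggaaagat

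The Pgam1 window held 3 matches to the core, the Gapdh window 3 and the Pgk1 window 2, while the windows of Slc2a2 and Gpi1 held none. Of all 32851 promoter windows of this length in the table, 43.8% held at least 1 match, so a match is common. Over the start sites listed for them, 7 of the 9 genes had at least 1 window with a match. Pfkl had 1 start site, Pfkm 4, Aldoa 3 and Pkm 2. That count is per gene while the 43.8% is per window, so they cannot be compared. The letters did not separate the genes by direction, since Pgam1 and Gapdh, on opposite sides of 0, both held 3. The full E-box CACGTG, which contains the core on both strands, was present in 1 of 4 Pfkm windows and in no window of the other 8 genes, against 7.15% of all windows. A match of letters is not a bound site.

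The 9 genes spanned a wide range of levels. Aldoa was the highest, at 217 FPKM in the KO-labelled library and 234 FPKM in WT, where it ranked 167th and 111th among all genes. Pkm was next in the KO-labelled library, at 115 FPKM, and stood below Slc2a2 in WT, at 107 against 152 FPKM. Pfkl was the lowest in the KO-labelled library, at 14.0 FPKM, and Gapdh was the lowest in WT, at 13.5 FPKM. The levels of the 9 genes summed to 584 FPKM in the KO-labelled library and 702 FPKM in WT. In the KO-labelled library the order from high to low was Aldoa, Pkm, Slc2a2, Gpi1, Pgk1, Pgam1, Pfkm, Gapdh and Pfkl. The 95% counting intervals of Slc2a2 and Gpi1 overlapped there, as did those of each neighbouring pair from Pgam1 down to Pfkl. In WT the order was Aldoa, Slc2a2, Pkm, Pgk1, Gpi1, Pgam1, Pfkm, Pfkl and Gapdh, with overlap between Pgk1 and Gpi1 and between Pfkl and Gapdh. Slc2a2 thus stood below Pkm in the KO-labelled library and above it in WT, and Pgam1 stood level with Pfkm (20.5 and 19.9 FPKM) in the KO-labelled library and above it (46.0 and 22.0 FPKM) in WT. Among all genes, Slc2a2 ranked 609th in the KO-labelled library and 203rd in WT.

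**Figure D1:**
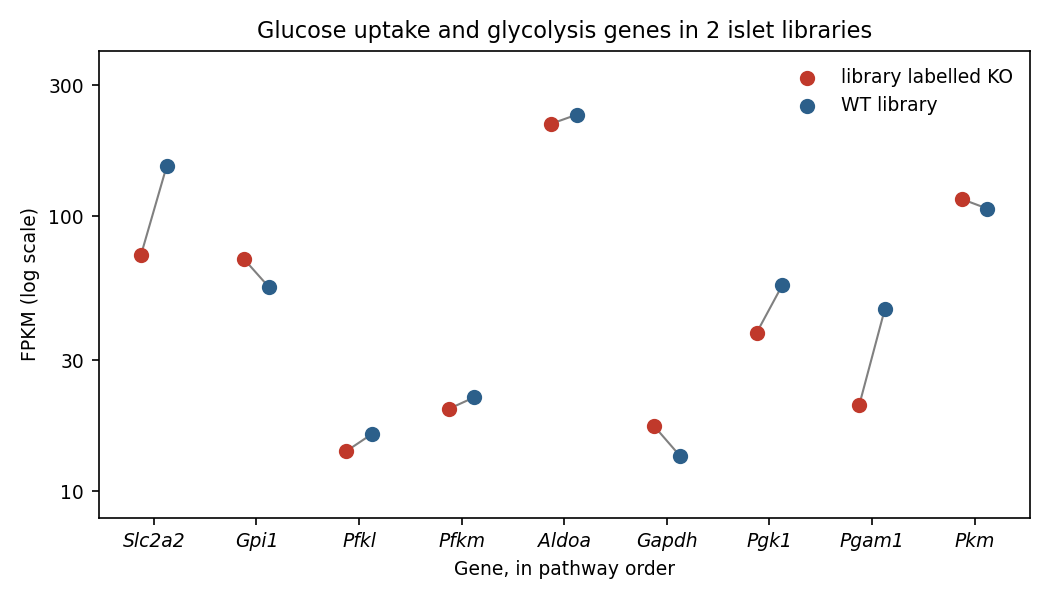
Levels of the 9 genes in pathway order, in FPKM on a log axis, with the KO-labelled library in red on the left and the WT library in blue on the right of each pair; 1 library per genotype, so there are no error bars. Slc2a2, Pgk1 and Pgam1 have the steepest lines, at 72.3, 37.7 and 20.5 FPKM in the KO-labelled library against 152, 56.1 and 46.0 FPKM in WT.

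Slc2a2 and Pgam1 were lower by 2-fold or more in the KO-labelled library, and none of the 9 genes was higher by 2-fold or more. The share of all 12428 expressed genes past that limit was 3.88% on the lower side and 6.98% on the higher side. All 9 genes were expressed by the limit of 1 FPKM. Of the 9, 6 lay below 0 and 3 above it, with a median of -0.13, a smallest value of -1.12 and a largest of 0.34. The median of all expressed genes was 0.077, with quartiles of -0.35 and 0.51, so only Slc2a2, Pgk1 and Pgam1 were outside those quartiles. Pgam1 had a lower difference than all but 2.45% of expressed genes and Slc2a2 than all but 3.11%. The 2-fold calls among all genes were split unevenly: 64.3% of them were higher as deposited, against 46.5% with each library scaled to a sum of 1000000 and 44.3% with equal sums without the 20 highest genes. These scalings moved the median of all genes by -0.12 and -0.13.

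**Figure D2:**
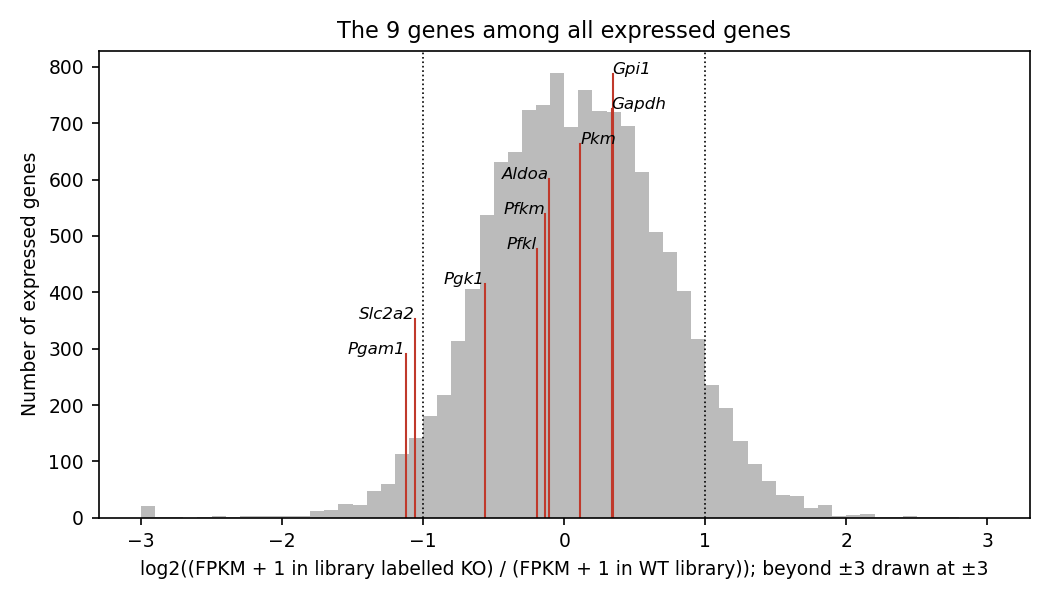
Histogram of the log2 difference of all 12428 expressed genes (x axis, KO-labelled library over WT with a pseudocount of 1 FPKM; y axis, number of genes), with red lines at the 9 genes and dotted lines at 2-fold. Pgam1 and Slc2a2 lie left of the 2-fold line, at -1.12 and -1.06, Pgk1 is at -0.56, and the other 6 lie between -0.19 and 0.34.

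The uptake step was compared first. Slc2a2 lies on chromosome 3 from 28697903 to 28728361. It was at 72.3 FPKM in the KO-labelled library against 152 FPKM in the WT library, 2.10-fold lower (95% counting interval 2.01 to 2.20), from at least 2704 and 7460 reads. The log2 difference was -1.06. With a trend of the difference on GC content and transcript length removed it was -0.53, short of 2-fold. The Slc2a2 transcript used there has the lowest GC content of the 9, 41.7%, against 49.7% to 57.7% for the other 8. It has 5569 nucleotides, while the smallest whole reads of Slc2a2 go with a length of 2571. The deposited values may thus rest on another transcript, for which the correction could differ. Scaled to the reference genes outside glycolysis, the log2 difference of Slc2a2 was -0.99. Slc2a2 made up 88.4% of the summed FPKM of Slc2a1, Slc2a2 and Slc2a3 in the KO-labelled library and 94.7% in WT. Slc2a1, the widespread transporter GLUT1, was at 5.63 and 6.11 FPKM in the KO-labelled library and in WT, a ratio whose interval of 0.772 to 1.10 includes 1. Slc2a3, the high-affinity transporter GLUT3, was higher in the KO-labelled library, at 3.89 against 2.42 FPKM (1.61-fold, 1.37 to 1.90), short of 2-fold on the log2 scale used, at 0.52.

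Of 13 listed sugar transporters 7 were expressed, of which 2 were lower by 2-fold or more and none higher, with a median of -0.099. Over all expressed genes these shares were 3.88% lower and 6.98% higher. Slc2a2 was 1 of the 2 lower transporters. The other lower one was Slc2a13, a proton-coupled myo-inositol transporter, at 1.36 against 3.95 FPKM (log2 difference -1.07). It was short of 2-fold after correction for GC and length, at -0.59, and with a pseudocount of 5 FPKM, at -0.49. Slc2a8, an intracellular transporter, was at 0.44, and at -0.099 after correction for GC and length. Slc2a5, the fructose transporter GLUT5, was named after its values were seen, because its level was close to that of Slc2a2: 85.6 FPKM in the KO-labelled library and 112 FPKM in WT. The level of Slc2a2 was 0.845 times that of Slc2a5 in the KO-labelled library and 1.36 times in WT.

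Slc2a2 is also a marker of β-cells, so the other β-cell markers are given beside it. Of 12 listed β-cell markers, Slc2a2 among them, 4 were lower by 2-fold or more in the KO-labelled library and 1 higher by 2-fold or more. Over all expressed genes these shares were 3.88% and 6.98%. Of the 12 markers, 8 lay below 0 and 4 above it, with a median of -0.55. The other lower ones were the incretin receptor Glp1r (17.9 against 99.2 FPKM), G6pc2 and the transcription factor Nkx6-1 (53.2 against 140 FPKM). Ins1 was the higher one, and the other 3 above 0 were the transcription factor Mafa (309 against 211 FPKM, log2 difference 0.55), the cation channel Trpm5 (22.1 against 14.8 FPKM, 0.55) and the peptide Ucn3 (551 against 398 FPKM, 0.47). Neither library had a listed β-cell marker at 0. In whole islets, fewer β-cells and less RNA of a gene per cell cannot be told apart.

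Between uptake and Gpi1 lies the phosphorylation of glucose by hexokinases. Hk1, a high-affinity hexokinase, was at 9.58 FPKM in the KO-labelled library against 6.85 FPKM in WT (1.40-fold, 1.26 to 1.55). Hk3 was at 1.11 and 0.590 FPKM, and Hk2 and Hkdc1 were under 1 FPKM in both libraries. G6pc2, the islet glucose-6-phosphatase that reverses the step, was at 427 against 1334 FPKM, a log2 difference of -1.64 that stayed past 2-fold in all 10 settings.

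**Figure D3:**
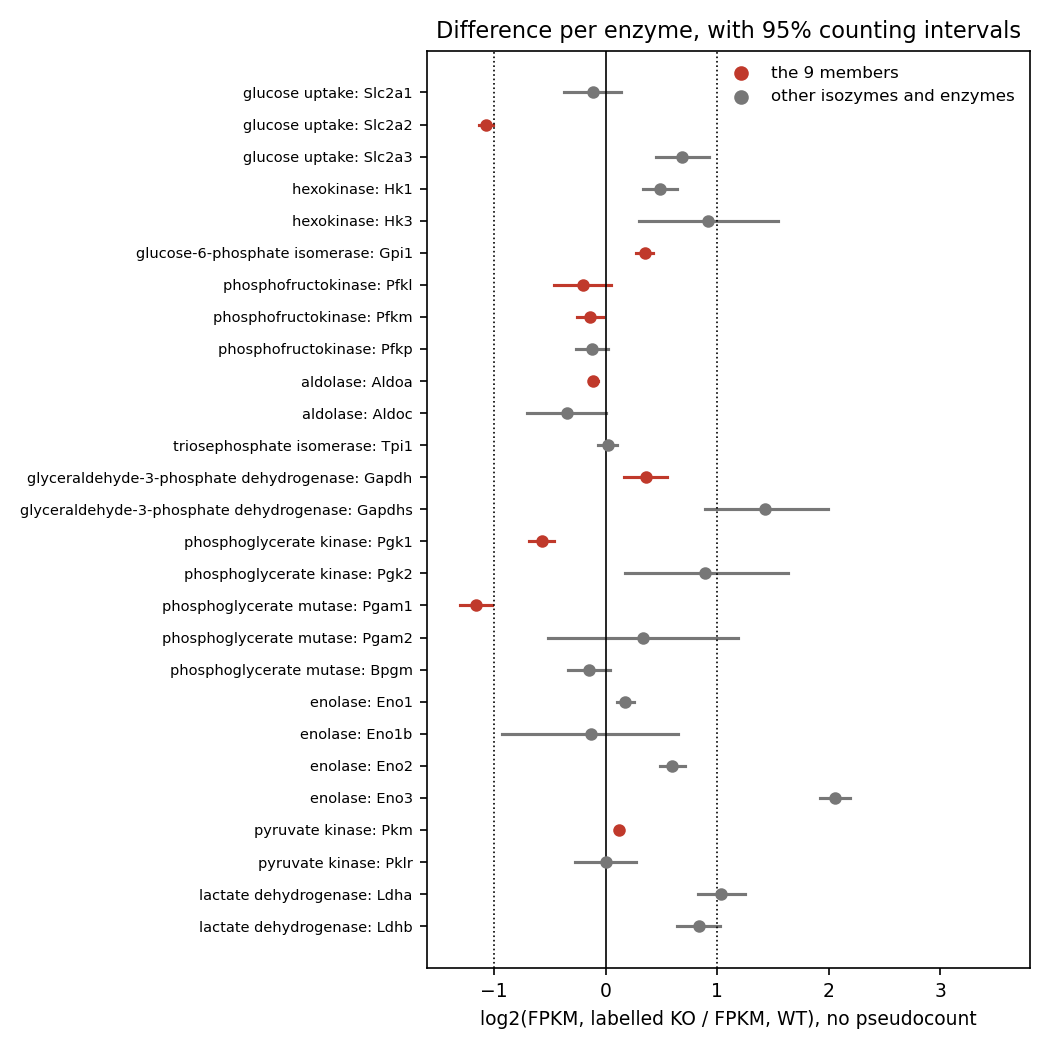
Ratio of FPKM, KO-labelled library over WT, for expressed genes of the 12 steps from uptake to lactate (x axis, log2 without a pseudocount; bars, 95% counting intervals; red, the 9 genes; grey, other genes; dotted lines, 2-fold). Slc2a2 and Pgam1 lie at 2.10-fold and 2.24-fold lower, and Eno3 at 4.16-fold higher.

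Of the upper enzymes that follow, Gpi1 was higher in the KO-labelled library. Gpi1, glucose-6-phosphate isomerase on chromosome 7 from 34201327 to 34230336, was at 70.1 FPKM in the KO-labelled library against 55.1 FPKM in WT (1.27-fold higher, 1.21 to 1.34). Its log2 difference, 0.34, was above 0 in all 10 settings, from 0.19 to 0.41. Pfkl, the liver-type subunit of phosphofructokinase on chromosome 10 from 77986947 to 78009807, was at 14.0 and 16.1 FPKM in the KO-labelled library and in WT. The interval of that ratio, 0.723 to 1.04, includes 1, from at least 207 and 314 reads. Those smallest reads go with a length of 1019 nucleotides, while the longest coding transcript of Pfkl has 3730. The true reads may thus be a multiple and the interval narrower, so whether Pfkl differed beyond counting error was not settled.

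Pfkm, the muscle-type subunit on chromosome 15 from 98092589 to 98132447, was at 19.9 and 22.0 FPKM in the KO-labelled library and in WT (ratio 0.907, 0.834 to 0.986). Pfkp, the platelet-type subunit, was at 10.4 and 11.4 FPKM (0.830 to 1.01). The make-up of the phosphofructokinase step was nearly the same in both libraries: Pfkm held 44.9% of the summed FPKM in the KO-labelled library and 44.4% in WT, and Pfkl 31.5% and 32.6%. Aldoa, aldolase A, on chromosome 7 from 126795234 to 126800994, was at 217 FPKM in the KO-labelled library against 234 FPKM in WT (ratio 0.926, 0.899 to 0.954). Its log2 difference was -0.11, and -0.59 after correction for GC and length. Aldoc, the brain form, was at 2.61 and 3.32 FPKM, so that Aldoa made up 98.8% of the summed FPKM of Aldoa and Aldoc in the KO-labelled library and 98.6% in WT. Aldoa overlaps Fam57b, Pfkm overlaps Senp1 and Gapdh overlaps Iffo1 in the annotation, and the sources used here do not say how shared reads were assigned.

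The lower enzymes, which work on 3-carbon sugars, differed more from each other. Gapdh, glyceraldehyde-3-phosphate dehydrogenase on chromosome 6 from 125161852 to 125166467, was at 17.3 FPKM in the KO-labelled library against 13.5 FPKM in WT (1.28-fold higher, 1.12 to 1.47), from at least 436 and 447 reads. Its log2 difference was 0.34 and was above 0 in 9 of 10 settings; after correction for GC and length it was -0.17. These levels were far below those of its neighbours in the pathway. Aldoa was at 12.6 times the level of Gapdh in the KO-labelled library and 17.4 times in WT, and Gapdh was at 0.0604 and 0.0552 times the level of Actb, β-actin, in those libraries. Among annotated mouse pseudogenes, 158 matched the Gapdh transcript over at least 500 bases at 90% identity or more, against 0 to 6 for each of the other 8 genes. The sources used here do not say how reads that fit several copies were counted, so the level of Gapdh is uncertain, and the part of these copies in it was not tested. Gapdhs, the sperm isozyme, was at 3.77 and 1.40 FPKM in the KO-labelled library and in WT, a log2 difference of 0.99.

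Gapdh and Pgk1 are both used to normalise RNA measurements, so they were set beside 18 other reference genes. None of the 18 was higher by 2-fold or more or lower, and their median was -0.044. The widest were B2m, of the class I histocompatibility complex (0.91), Sdha, a subunit of succinate dehydrogenase (-0.88), Polr2a (-0.65) and Psmc4 (0.56). Gapdh lay 0.38 above the median of the 18 on the log2 scale, and 0.092 below it after correction for GC and length. The level of Gapdh was 0.459 times that of Pgk1 in the KO-labelled library and 0.240 times in WT.

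Pgk1, phosphoglycerate kinase, on chromosome X from 106187100 to 106203699, was at 37.7 FPKM in the KO-labelled library against 56.1 FPKM in WT, 1.49-fold lower (1.38 to 1.61), from at least 999 and 1955 reads. Its log2 difference of -0.56 lay between -0.71 and -0.50 over the 10 settings, never past 2-fold. Pgk2, the testis form, was at 1.77 and 0.954 FPKM in the KO-labelled library and in WT.

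Pgam1, phosphoglycerate mutase, on chromosome 19 from 41911871 to 41918665, had the widest difference of the 9 genes. It was at 20.5 FPKM in the KO-labelled library against 46.0 FPKM in WT, 2.24-fold lower (2.03 to 2.47), from at least 547 and 1608 reads. The log2 difference was -1.12 and was past 2-fold in 9 of 10 settings, the exception being a pseudocount of 5 FPKM, with -0.997. After correction for GC and length it was -1.35. Pgam1 ranked 2684th among all genes in the KO-labelled library and 1020th in WT. Its level was 0.178 times that of Pkm in the KO-labelled library and 0.431 times in WT. Pgam2, the muscle isozyme, was at 1.90 and 1.503 FPKM, from at least 25 and 26 reads, and the ratio had an interval of 0.700 to 2.28. Bpgm, bisphosphoglycerate mutase, which is most abundant in red blood cells, was at 17.6 and 19.5 FPKM in the KO-labelled library and in WT. Summed over Pgam1, Pgam2 and Bpgm, Pgam1 made up 51.3% in the KO-labelled library and 68.6% in WT.

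Pkm, pyruvate kinase M on chromosome 9 from 59656576 to 59679372, was at 115 FPKM in the KO-labelled library against 107 FPKM in WT (1.08-fold, 1.06 to 1.11). That ratio is above 1 by more than counting error, but its log2 difference of 0.12 was below 0 in 3 of 10 settings: -0.030 with a sum of 1000000, -0.034 with equal sums without the 20 highest genes, and -0.25 after correction for GC and length. Gene totals do not separate the M1 and M2 splice forms. Pklr, the liver and red-cell isozyme, was at 4.77 and 4.78 FPKM in the KO-labelled library and in WT, and Pkm made up 96.0% and 95.7% of pyruvate kinase FPKM.

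Among the other glycolytic genes 10 lay above 0 and 5 below it. The median of all expressed genes also lay above 0, at 0.077, and 45.4% of them lay below the value of Pklr, -0.0015. Of 18 listed enzymes and isozymes that are not among the 9, 15 were expressed, with a median of 0.21. Of the 15, 1 was higher by 2-fold or more and none lower, beside 6.98% and 3.88% of all expressed genes. The higher one was Eno3, the muscle form of enolase, at 23.6 against 5.68 FPKM (4.16-fold, 3.79 to 4.57), past 2-fold in all 10 settings. Eno1, the widespread enolase, was at 90.2 and 80.0 FPKM (1.13-fold, 1.07 to 1.19), and -0.24 on the log2 scale after correction for GC and length. Eno1b, a close copy of Eno1, was at 0.978 and 1.07 FPKM in the KO-labelled library and in WT. Eno2, the neuronal form that islet cells also express, was at 29.5 against 19.5 FPKM (1.51-fold, 1.40 to 1.63). The enzyme triosephosphate isomerase, Tpi1, was at 90.7 and 89.6 FPKM, an interval of 0.954 to 1.08 for the ratio. The median of the listed genes kept in a setting was above that of all genes kept in all 10 settings. After correction for GC and length these medians were close, 0.096 and 0.076. The median of the 9 genes was below that of all genes kept in all 10 settings.

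**Figure D4:**
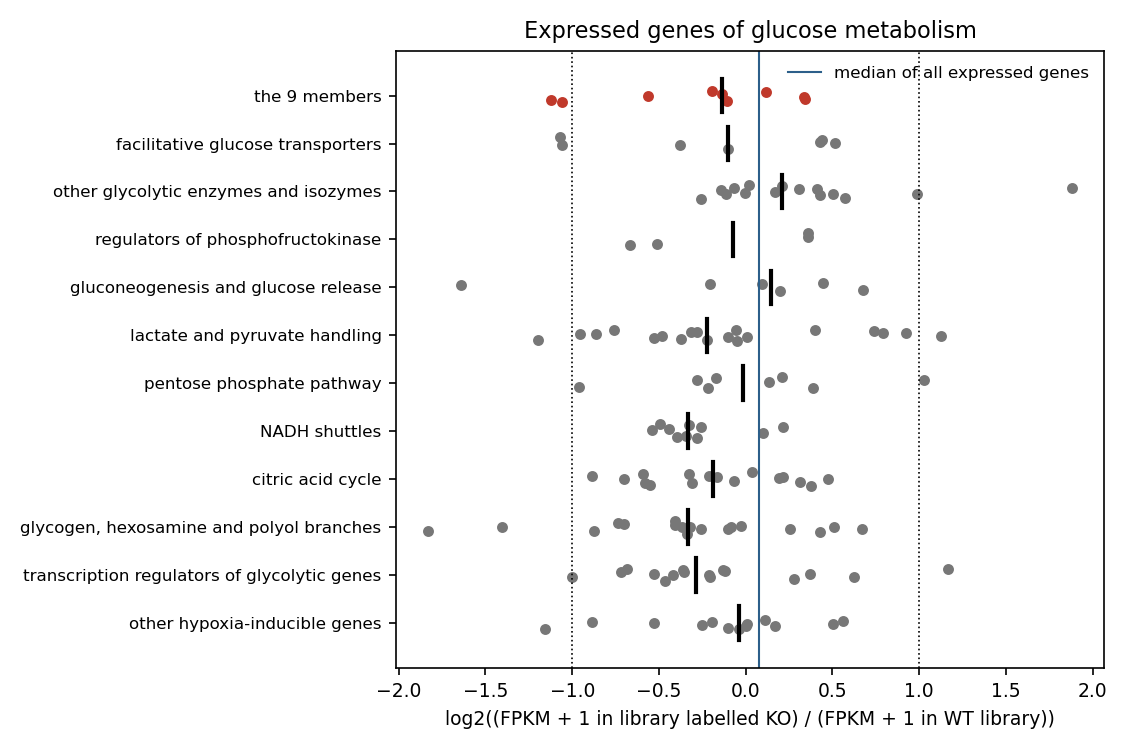
Log2 difference of every expressed gene of 12 groups around glucose metabolism (x axis, KO-labelled library over WT with a pseudocount of 1 FPKM; dots, genes; black bars, medians; blue line, median of all expressed genes, 0.077; dotted lines, 2-fold). The 9 genes in red have a median of -0.13, and the other glycolytic enzymes a median of 0.21.

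Around glycolysis, the phosphofructokinase regulators had a median of -0.076 over 4 expressed genes, with none past 2-fold. Over the 10 settings that median lay between -0.59 and 0.29. Pfkfb2, the bifunctional enzyme whose product activates phosphofructokinase, was at 11.8 against 19.3 FPKM (log2 difference -0.67), and Tigar, a fructose-bisphosphatase, at -0.51. Corrected for GC and length, Pfkfb2 was at -0.29 and Tigar at -0.35. The remaining expressed ones, Pfkfb3 and Pfkfb4, were each at 0.36 without the correction. Over all expressed genes 6.98% were higher and 3.88% lower by 2-fold or more. Among 19 expressed genes of lactate and pyruvate handling the median was -0.22, with 1 higher and 1 lower past 2-fold. These were Ldhd, D-lactate dehydrogenase (8.25 against 3.24 FPKM), and Pdpr, a regulator of pyruvate dehydrogenase phosphatase (0.654 against 2.80 FPKM). Both were short of 2-fold after correction for GC and length, at 0.80 and -0.90 on the log2 scale, and with a pseudocount of 5 FPKM, at 0.69 and -0.46. Ldha was at 12.2 against 5.98 FPKM, 2.05-fold higher without a pseudocount (1.77 to 2.37) and 0.92 on the log2 scale with it. Ldhb was at 28.0 against 15.7 FPKM (1.78-fold, 1.56 to 2.03). The level of Pkm was 9.44 times that of Ldha in the KO-labelled library and 17.8 times in WT. Pdk4, a kinase that inhibits pyruvate dehydrogenase, was at -0.96.

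Genes of the branch and downstream pathways were counted next, beside 3.88% of all expressed genes lower and 6.98% higher by 2-fold or more. In the pentose phosphate pathway 1 of 8 expressed genes was higher by 2-fold or more, Pgls (65.8 against 31.8 FPKM). It was past 2-fold in 5 of 10 settings, and at 0.14 on the log2 scale after correction for GC and length. None was lower by 2-fold or more, with Rpe at -0.96 and a median of -0.018. None of 10 genes of the NADH shuttles was past 2-fold, 8 of them below 0, with a median of -0.34. Gpd2, the mitochondrial glycerol-phosphate dehydrogenase, was at -0.54 and Mdh1, cytosolic malate dehydrogenase, at -0.49. Corrected for GC and length, Gpd2 was at -0.13 and Mdh1 at -0.31. None of 16 citric acid cycle genes was past 2-fold, 10 below 0, with a median of -0.19. The widest were Sdha at -0.88, which was past 2-fold in 2 of 10 settings, and Sucla2 at -0.70. In the glycogen, hexosamine and polyol branches 2 of 18 were lower by 2-fold or more and none higher, with a median of -0.33. They were Gfpt1, which starts hexosamine synthesis from fructose 6-phosphate (22.2 against 81.3 FPKM, 3.67-fold lower, 3.34 to 4.04), and Gbe1, the glycogen branching enzyme (2.37 against 7.92 FPKM; -0.81 on the log2 scale with a pseudocount of 5 FPKM). Of 6 expressed genes of gluconeogenesis and glucose release, G6pc2 was the 1 past 2-fold, with G6pc3 at 0.68 and Pck2 at 0.45. Corrected for GC and length, G6pc3 was at 0.16 and Pck2 at 0.58.

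Among regulators that act on glycolytic genes, the ChREBP gene Mlxipl was at 205 against 90.7 FPKM (2.26-fold higher, 2.19 to 2.33), and Hif1a, the oxygen-regulated subunit of HIF-1, at 7.12 against 15.3 FPKM (log2 difference -1.002). After correction for GC and length they were 0.95 and -0.51, both short of 2-fold. Hif1an and Egln1, oxygen-sensing hydroxylases that restrain HIF, were at -0.72 and -0.69. Epas1, the oxygen-regulated subunit of HIF-2, was at 0.63 (42.9 against 27.4 FPKM). The median of the 16 expressed regulators was -0.28, with 4 above 0 and 12 below it. Of 13 expressed hypoxia-inducible genes outside glycolysis, 6 lay above 0 and 7 below it, with a median of -0.037. Of these, 1 was lower by 2-fold or more, beside 3.88% of all expressed genes. It was Ero1a, an oxidase of the endoplasmic reticulum (5.92 against 14.4 FPKM). With a pseudocount of 5 FPKM it was at -0.83 on the log2 scale. The mitophagy receptor Bnip3 was at -0.88 and Ankrd37 at 0.56. Corrected for GC and length, Bnip3 was at -0.67 and Ankrd37 at 0.17. The cells in which these regulators act cannot be read from whole islets.

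Markers of other cells also differed between the libraries, and their part in the values of the 9 genes was not tested. Their counts stand beside 3.88% of all expressed genes lower and 6.98% higher by 2-fold or more. Of 13 expressed acinar markers, all 13 were lower by 2-fold or more in the KO-labelled library, and the 15 listed summed to 136 against 2088 FPKM, with Ptf1a at 0 in the KO-labelled library. Endothelial markers summed to 680 against 295 FPKM with 5 of 10 higher by 2-fold or more. Macrophage markers summed to 318 against 135 FPKM with 5 of 10 higher by 2-fold or more, and stromal markers to 210 against 110 FPKM with 2 of 9 expressed ones higher by 2-fold or more. Erythrocyte markers, relevant to Bpgm and Pklr, summed to 175 against 103 FPKM, with 1 of 5 higher by 2-fold or more, Hba-a2, an α-globin whose near-identical copy Hba-a1 makes its count uncertain. Their median log2 difference was 0.67, and 0.14 after correction for GC and length, where Hba-a2 was at 0.28 against 1.14 without it. Skeletal muscle markers, relevant to Pfkm and Eno3, summed to 7.82 against 2.86 FPKM over the 4 of 6 listed that are in the table. Mylpf, a myosin light chain, was at 5.62 against 1.49 FPKM (log2 difference 1.41, and 0.87 after correction for GC and length), and Acta1, skeletal actin, at 2.15 against 1.30 FPKM. Ckm, the muscle creatine kinase, was at 0 in the KO-labelled library and 0.0740 FPKM in WT, and Tnnt3, a troponin, at 0.0588 FPKM in the KO-labelled library and 0 in WT. Alpha-cell markers had none of 7 past 2-fold and a median of 0.19. After correction for GC and length their median was -0.069, and the glutamate receptor subunit Gria2 was past 2-fold, at 1.09. Ductal markers had none of 7 expressed ones past 2-fold and a median of 0.50, and 0.23 after the correction.

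**Figure D5:**
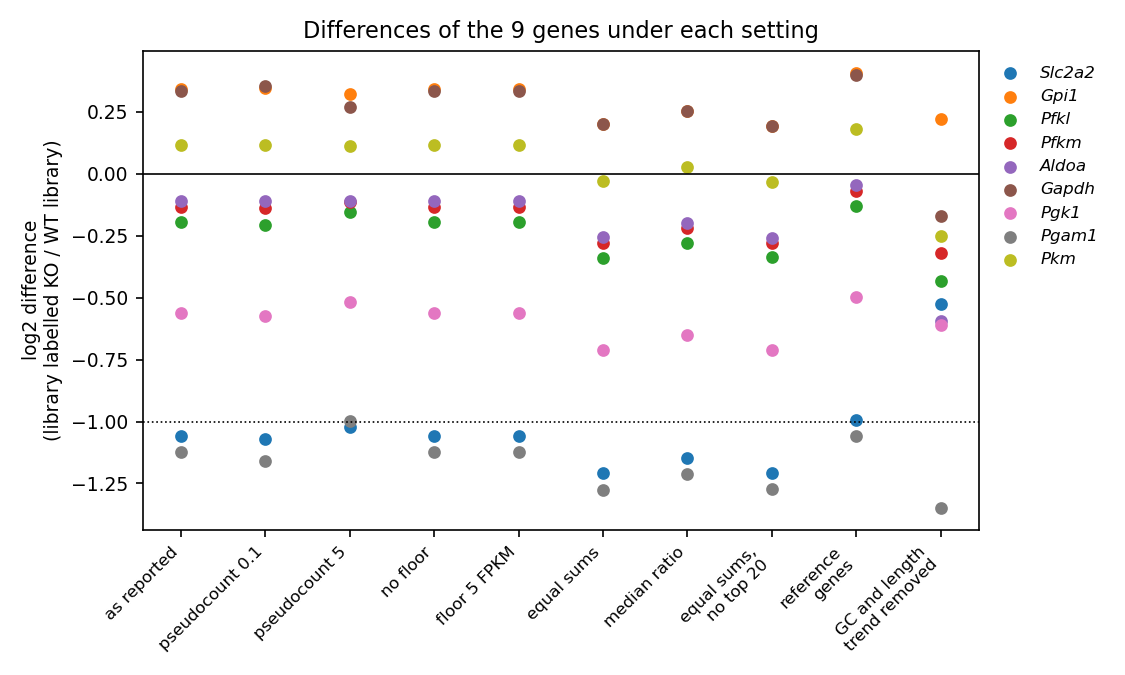
Log2 difference of each of the 9 genes (y axis, KO-labelled library over WT) under the 10 settings (x axis); each color is a gene and the dotted line marks 2-fold lower. Slc2a2, Pgk1, Pgam1, Pfkl, Pfkm and Aldoa stay below 0 in all 10 settings, Gpi1 stays above 0, and Gapdh and Pkm fall on both sides.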

How the data were processed

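RNA of mouse islets was sequenced in 2 samples, 1 per genotype as labelled. FPKM values stood in a single table deposited by the authors, a column for each library, and were not scaled further. The builds GRCm38 and mm10 come from the submitters' processing notes; the sources used here do not give the aligner, counter, annotation, strand setting or filters. Per the labels' protocols, a SMARTER mRNA kit was used on total RNA.

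FPKM values were searched for whole reads divided by a whole length of 60 to 30000 nucleotides and by 1 total per library. The totals were 14537660 and 19097001 (KO-labelled library and WT), and they made 17178 of 17245 genes (99.6%) whole, with a tolerance of 1e-05 reads plus 1e-09 of the read number. The smallest such reads gave exact Clopper-Pearson 95% intervals of FPKM ratios. True reads are these or a multiple, so intervals can be too wide. Intervals of levels are exact Poisson ones. The sources used here describe no molecular identifiers, so reads may be PCR copies and intervals cover counting error only. With FPKM values and no replicate, no count test was run. Each difference is log2((KO + 1)/(WT + 1)), over genes that reach 1 FPKM in either library. Scripts were tested on simulated data.

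The 9 genes, the lists and the limits were chosen with earlier results of these data known. The text names all 9 genes, the expressed isozymes of their steps and up to 4 genes per list with the widest differences. Slc2a5, Hk2, Hkdc1, Actb, Ins1, Ins2, Cgas, Ptf1a, Mafa, Trpm5, Ucn3, Tnnt3, Ckm and Epas1 were named outside that rule for their role or level. Some single genes are not reported here, and the lists were counted without them. The GC and length correction used, per gene, its longest coding transcript in GENCODE M21, for 12206 of 12428 expressed genes (98.2%). That transcript can differ from the one behind the deposited values. The trend was a lowess fit (fraction 0.3, 3 iterations), first on GC content, then on log2 length, keeping the median of all genes. Pseudogene copies were found with BLAST 2.17.0 in GENCODE M21 transcripts, and overlapping genes in its annotation. Other named genes that overlap a coding gene there, and are less certain, are Hk3, Pfkp, Tpi1, Pklr, Pfkfb2, Ldhd, Pgls, Rpe, Mdh1, Sucla2, Hif1a, Ankrd37, Trpm5, Acta1 and B2m. Gene positions and promoters came from RefSeq on GRCm38.p6. Python 3.11.15, SciPy 1.17.1 and statsmodels 0.14.6 were used.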

Additional observations from a re-analysis of the deposited data

How the results depend on the processing

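The alternatives were pseudocounts of 0.1 and 5 FPKM, no floor and a floor of 5 FPKM, 4 scalings (a sum of 1000000, the median ratio of expressed genes, equal sums without the 20 highest genes, and the geometric mean of 18 reference genes) and a correction that removes the trend with GC content and transcript length. The number of the 9 genes lower by 2-fold or more was 2 as reported and under 6 of these 9 alternatives. It was 1 with a pseudocount of 5 FPKM, where Pgam1 was at -0.997, 1 with the reference genes, where Slc2a2 was at -0.99, and 1 after the GC and length correction, where Slc2a2 was at -0.53. None of the 9 was higher by 2-fold or more under any of them. The median of the 9 genes was -0.13 as reported. It was -0.28 with a sum of 1000000 and -0.28 with equal sums without the 20 highest genes. These scalings multiply all genes of a library by 1 factor before the pseudocount is added, so genes of low level move less. The median of all genes kept moved by -0.12 and -0.13 with them. After the GC and length correction the median of the 9 genes was -0.43, while that of all genes stayed nearly in place. The cause was not tested. No paired analysis was possible because each genotype has 1 library, and for the same reason no replicate could be left out. Pfkl had the fewest recovered reads of the 9 genes, at least 207 and 314 in the KO-labelled library and in WT. Its true reads may be a multiple of these.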
